A study of Saccharomyces cerevisiae with 36 samples.

Results

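Transcripts of the cytosolic Hsp70 and Hsp110 chaperones of budding yeast were followed through heat shock, in total RNA and in pellet and soluble RNA. The family comprised 9 genes, taken by identity from the 6697 genes of the count table. Earlier results of these data were known by then, but no measured value was used to take these genes. They were the Hsp70 genes SSA1, SSA2, SSA3, SSA4, SSB1 and SSB2, the Hsp70-related gene SSZ1, and the Hsp110 genes SSE1 and SSE2. All 9 passed the filter on low counts in both models, with a lowest count of 504 in any library.

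The strains were of the W303 Ade+ background. One, here WT, had the genotype Ded1-mCherry, and the other, here IDRm, had Ded1_IDRm-mCherry. Ded1 is a DEAD-box RNA helicase that acts in translation initiation, and both strains carried the mCherry tag on it, so there was no untagged control. The labels do not spell out the IDRm change, and 1 strain stood for each allele. Cultures grown at 30 °C were held for 10 min at 30, 40 or 42 °C. RNA was taken as total RNA, from an insoluble fraction labelled pellet and from a soluble fraction, which gave 18 groups of 2 libraries. How pellet and soluble RNA were parted is not given in the labels.

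Hsp70 proteins bind short hydrophobic stretches of unfolded chains and let go of them in a cycle driven by ATP. J-proteins stimulate ATP hydrolysis, which closes the chaperone on its client, and the Hsp110 proteins Sse1 and Sse2, like Fes1, release ADP so that the cycle can restart. Ssa1 and Ssa2 are the general Hsp70s of unstressed yeast cytosol, whereas Ssa3 and Ssa4 are known as stress-induced forms. Ssb1 and Ssb2 sit on ribosomes and receive nascent chains, helped there by Ssz1, which forms the ribosome-associated complex with the J-protein Zuo1. In yeast the heat shock factor Hsf1 binds repeats of GAA and TTC in promoters, and Msn2 and Msn4 bind the stress response element AGGGG.

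Promoters of 3 members that rose under heat and of 1 that fell are shown, with matches to letters that the heat-responsive regulators are known to bind. Binding was not measured. SSA3, which also rose, had no match in its window and is not printed. The window ran from 400 to 101 bases before the start codon, on the strand of the gene, in the R64 genome. Of its 300 bases, capitals mark matches to GAANNTTC or TTCNNGAA, the heat shock element of 2 units, and to AGGGG or CCCCT, each read on both strands. An element of 3 units was GAANNTTCNNGAA or TTCNNGAANNTTC, and so holds 2 overlapping matches of the shorter kind.
SSA1, chrI:141532-141831, minus strand: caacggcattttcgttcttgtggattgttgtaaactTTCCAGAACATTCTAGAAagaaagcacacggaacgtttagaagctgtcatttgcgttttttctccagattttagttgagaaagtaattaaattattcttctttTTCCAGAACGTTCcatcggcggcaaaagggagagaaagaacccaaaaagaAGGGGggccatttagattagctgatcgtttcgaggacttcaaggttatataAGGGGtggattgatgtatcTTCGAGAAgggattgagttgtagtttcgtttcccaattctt
SSA2, chrXII:97586-97885, minus strand: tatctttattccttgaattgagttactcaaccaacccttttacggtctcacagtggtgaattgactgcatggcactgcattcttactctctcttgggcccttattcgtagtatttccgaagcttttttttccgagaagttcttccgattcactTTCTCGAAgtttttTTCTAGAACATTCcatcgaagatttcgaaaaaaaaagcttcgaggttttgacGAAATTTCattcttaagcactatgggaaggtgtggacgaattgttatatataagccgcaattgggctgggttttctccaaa
SSA4, chrV:364189-364488, plus strand: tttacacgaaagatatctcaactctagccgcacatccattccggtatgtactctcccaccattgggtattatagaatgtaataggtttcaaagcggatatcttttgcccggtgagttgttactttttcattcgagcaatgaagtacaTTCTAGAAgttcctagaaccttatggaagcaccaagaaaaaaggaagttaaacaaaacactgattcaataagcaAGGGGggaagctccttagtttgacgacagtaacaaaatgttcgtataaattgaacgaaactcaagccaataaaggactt
SSB1, chrIV:43665-43964, plus strand: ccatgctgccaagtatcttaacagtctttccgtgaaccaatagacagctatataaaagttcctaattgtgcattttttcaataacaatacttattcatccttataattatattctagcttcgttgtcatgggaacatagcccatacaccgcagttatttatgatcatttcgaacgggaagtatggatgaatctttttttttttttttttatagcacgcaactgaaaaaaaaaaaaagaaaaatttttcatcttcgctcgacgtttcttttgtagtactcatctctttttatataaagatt

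SSA1 held 3 elements of 3 units, of which 2 overlapped each other, and SSA2 held 1. Of 6020 promoter windows of the same length in the genome, 1.10% held such an element. Matches to the element of 2 units numbered 6 in SSA1, 4 in SSA2, 2 in SSE2 and 1 in SSA4, and 23.6% of windows held a match to it. AGGGG or CCCCT stood 2 times in the SSA1 window and 1 time each in those of SSA4 and SSE2, against 23.5% of windows with a match. In the windows of SSA3, SSB1, SSB2 and SSZ1 none of these letters was found. Bases outside the window were not searched, so the match count describes this stretch alone.

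Each gene had 1 coding exon in the R64 annotation, whose coordinates follow. SSA1 (YAL005C) lay at chrI:139503-141431 on the minus strand and SSA2 (YLL024C) at chrXII:95566-97485, also on the minus strand. SSA3 (YBL075C) lay at chrII:84499-86448, minus strand, and SSA4 (YER103W) at chrV:364589-366517, plus strand. SSB1 (YDL229W) lay at chrIV:44065-45906 and SSB2 (YNL209W) at chrXIV:252059-253900, both on the plus strand. SSZ1 (YHR064C) lay at chrVIII:225525-227141, SSE1 (YPL106C) at chrXVI:350194-352275 and SSE2 (YBR169C) at chrII:573915-575996, all on the minus strand. No other annotated gene overlapped any of them.

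Within the family, 2 pairs are near-identical. The coding sequences of SSB1 and SSB2 matched at 97.6% of aligned bases and those of SSA1 and SSA2 at 96.8%. SSA3 and SSA4 matched at 77.8%, and SSE1 and SSE2 at 73.2%. Of all 50-base windows in a gene, 42.1% were unique in the genome for SSA1, 41.8% for SSA2 and 56.8% for each SSB gene, against 100% for the other 5. The labels and processing notes do not say how reads that match both members of a pair were counted. The single SSA1, SSA2, SSB1 and SSB2 values are therefore uncertain, and pair sums are given where they change a call.

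Library totals ran from 4934241 to 13730247 counts. The 9 members together took 1.14% ± 0.0274 of the counts of WT total RNA at 30 °C, 5.02% ± 0.219 at 40 °C and 3.46% ± 0.318 at 42 °C. In IDRm total RNA they took 0.944% ± 0.00931, 5.12% ± 0.182 and 3.87% ± 0.0248 (mean ± SD, n = 2 in each). Levels are CPM, the count of a gene scaled to the library total times the TMM factor of that library. They are shares of the RNA in a library, so less of a transcript per cell and more of all others cannot be told apart.

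In unstressed WT cells the ribosome-bound SSB pair was the most abundant of the family, and the stress forms were low. Per kb of coding sequence, total RNA at 30 °C held 1842 and 1545 CPM of SSB2 and 1593 and 1358 of SSB1 in the 2 WT libraries, whose ranges overlapped. SSE1 followed at 891 and 933 CPM per kb and SSA2 at 886 and 766, next to each other but without overlap. SSZ1 stood at 480.4 and 457 CPM per kb and SSA1 at 434 and 337. The lowest were SSA4 at 129.8 and 219.5, SSE2 at 54.3 and 50.8 and SSA3 at 53.0 and 48.8 CPM per kb, SSE2 and SSA3 overlapping. SSA4 differed most between these 2 libraries. Part of this order depends on how length is counted. With length taken as unique windows, added after seeing the data, SSA2 had a mean of 2026 CPM per kb and SSE1 934. On that scale SSA1 was at 939 and SSZ1 at 483, so both orders were the reverse of those per kb of coding sequence. SSB2 (3064) and SSB1 (2670) stayed the highest there.

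At 40 °C 6 members rose and 3 fell in each strain. The rising members were the 4 SSA genes and both Hsp110 genes, and the falling members were SSB1, SSB2 and SSZ1, the ribosome-bound arm of the family. In WT, 69.7% of 6090 genes passed the test for this contrast (Benjamini-Hochberg adjusted p under 0.05 in edgeR's quasi-likelihood test), 37.1% higher and 32.6% lower. In IDRm 70.4% passed. With so many genes called, that all 9 members passed is close to the background, and the sizes carry more than the count. The median log2 change of the 9 members in WT was 1.76, against 0.07 over all genes tested.

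SSA4 rose most. It stood at 250.4 and 423 CPM in the WT libraries at 30 °C, 30888 and 28028 at 40 °C and 14266 and 19340.3 at 42 °C. In IDRm it stood at 182 and 176 CPM, 32146 and 30811 and 20131 and 21298. Every heated library was far above every library at 30 °C. The log2 change at 40 °C was 6.45 ± 0.25 (± SE) in WT, a fold of 87.4, and 7.46 ± 0.27 in IDRm, a fold of 176. Only 0.197% of genes rose more in WT.

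SSA3, the other stress-induced Hsp70, went from 103 and 95.2 CPM to 2275 and 1895 in WT and from 71.0 and 69.1 to 3352 and 3461 in IDRm at 40 °C. These are log2 changes of 4.39 ± 0.14 and 5.60 ± 0.15. At 42 °C it was at 631 and 691 CPM in WT and 1137 and 1099 in IDRm, between the other temperatures.

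SSE2, the less abundant Hsp110, went from 113 and 106 CPM to 1706 and 1764 in WT, a log2 change of 3.99 ± 0.16. Its IDRm libraries went from 117 and 125 to 2399 and 1819.7 CPM, a change of 4.13 ± 0.16. SSE1, the main Hsp110, started higher and changed less, from 1855 and 1941 to 5927 and 5856 CPM in WT (1.63 ± 0.12) and from 1698 and 1615 to 5317 and 5216 in IDRm (1.67 ± 0.12).

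SSA1 rose from 838 and 650.0 CPM to 6589 and 6508 in WT and from 599 and 645 to 6228 and 5954 in IDRm. SSA2, its near-copy, rose from 1702 and 1470.4 to 5315 and 5438 CPM in WT and from 1090.0 and 1053 to 4563 and 4263 in IDRm. The log2 changes in WT were 3.14 ± 0.15 for SSA1 and 1.76 ± 0.13 for SSA2. Summed as a pair they rose by 2.36 ± 0.13 in WT and 2.63 ± 0.13 in IDRm, which does not depend on how shared reads were split.

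SSB1 fell from 2935 and 2501 CPM to 941 and 1064 in WT, a log2 change of -1.44 ± 0.13, and from 2096 and 1939 to 495 and 571 in IDRm, a change of -1.92 ± 0.14. SSB2 fell from 3393 and 2845 to 826 and 906 CPM in WT and from 2464 and 2317 to 704 and 752 in IDRm, changes of -1.85 ± 0.13 and -1.72 ± 0.13. As a pair the SSB genes changed by -1.64 ± 0.13 in WT and -1.81 ± 0.13 in IDRm. SSZ1, the partner of Zuo1, fell less, from 777 and 739 to 473 and 493 CPM in WT (-0.65 ± 0.11) and from 726 and 667 to 403 and 442 in IDRm (-0.72 ± 0.11). No library at 40 °C overlapped one at 30 °C of the same strain for any member. How many of all genes were parted in this way was not counted, and 69.7% of them passed in WT and 70.4% in IDRm.

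**Figure D1:**
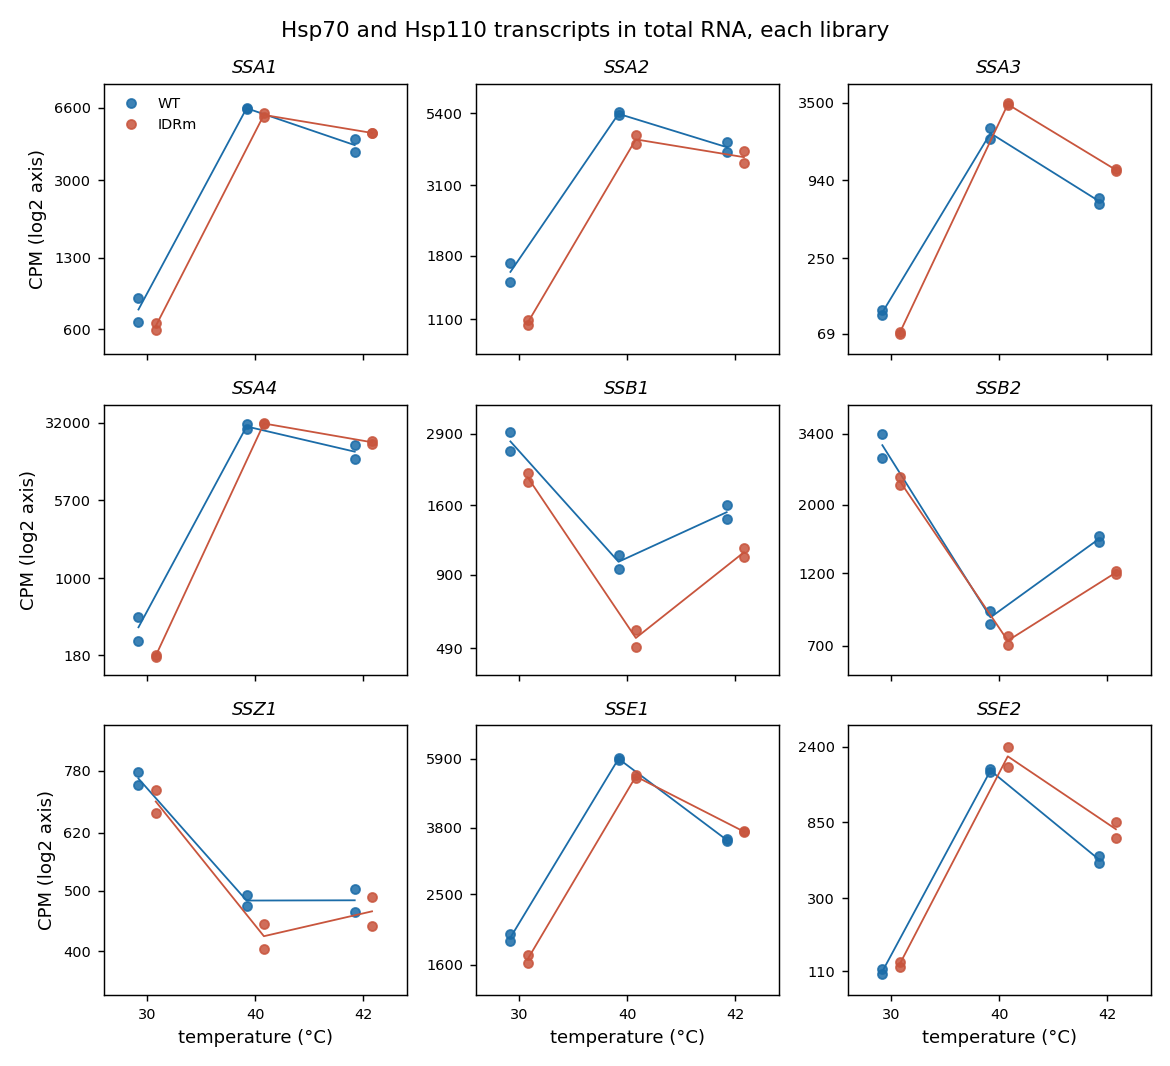
Level of each transcript in total RNA, in CPM on a log2 axis, at 30, 40 and 42 °C, which are drawn as evenly spaced categories. Points are single libraries (2 per group) and lines join group means, with WT in blue and IDRm in red. The SSA and SSE genes peak at 40 °C, while SSB1 and SSB2 are lowest there. SSZ1 at 40 and 42 °C overlaps in both strains.

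At 42 °C the same 6 members stood above 30 °C and the same 3 below it, in both strains, in contrasts where 61.4% of genes were called in WT and 64.8% in IDRm. SSA4 was again the highest, at a log2 change of 5.64 ± 0.24 in WT and 6.86 ± 0.26 in IDRm. SSA3, SSA1 and SSE2 came next in WT, at 2.73 ± 0.13, 2.56 ± 0.14 and 2.23 ± 0.15, within 1 log2 unit of each other. SSB2 stood at -1.01 ± 0.12 and SSB1 at -0.85 ± 0.13 in WT, and SSZ1 at -0.65 ± 0.11, close to its value at 40 °C. The 40 and 42 °C contrasts share the libraries at 30 °C.

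**Figure D2:**
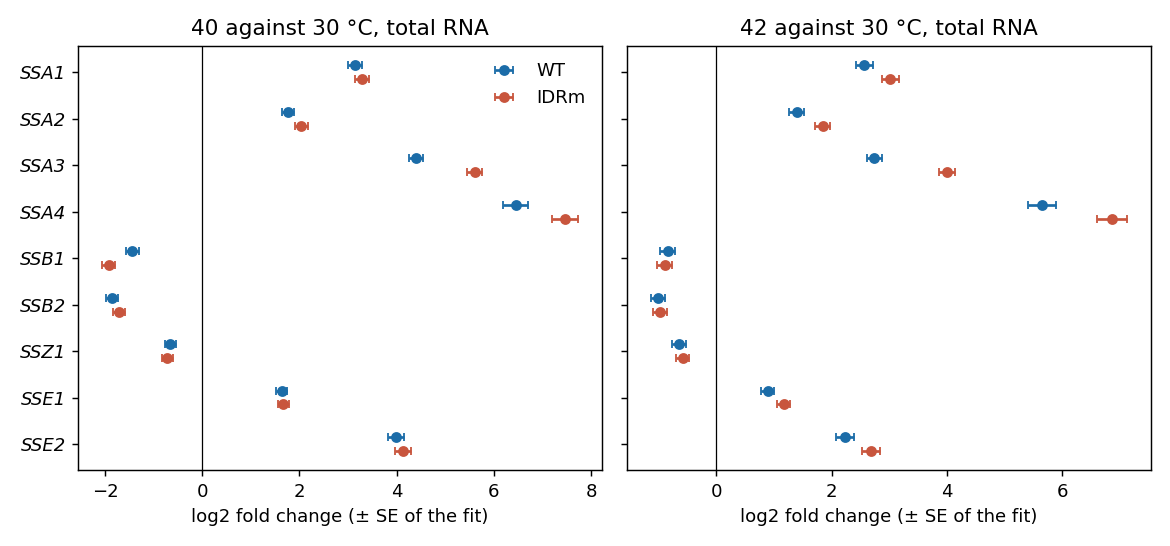
Log2 fold change of each transcript in total RNA at 40 °C (left) and 42 °C (right) against 30 °C, with bars for the standard error of the fit, for WT (blue) and IDRm (red). The values run from 7.46 for SSA4 in IDRm at 40 °C to -1.92 for SSB1 in IDRm at 40 °C, and each transcript lies on one side of 0 in all 4 contrasts.

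Between 40 and 42 °C the family moved back toward its unheated state in total RNA. In WT 46.9% of genes passed, and 6 members fell while SSB1 and SSB2 rose. SSE2 fell by 1.76 ± 0.15 and SSA3 by 1.66 ± 0.12 on the log2 scale, SSA4 by 0.81 ± 0.20, SSE1 by 0.74 ± 0.11, SSA1 by 0.58 ± 0.14 and SSA2 by 0.37 ± 0.12. SSB2 rose by 0.84 ± 0.12 and SSB1 by 0.59 ± 0.13. SSZ1 stood at 473 and 493 CPM at 40 °C and 503 and 463 at 42 °C in WT, a difference of 0.00 ± 0.11 that did not pass, with a 95% interval from -0.28 to 0.28. The SSA4 fall lost its call without WT 42 °C total replicate 1 (-0.61, adjusted p = 0.0614). That of SSA2 lost it without WT 40 °C total replicate 1 (-0.39, adjusted p = 0.0759) or 2 (-0.36, 0.0964) or WT 42 °C total replicate 2 (-0.33, 0.0911), and with no scaling factor (-0.24, 0.0837).

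In IDRm, 42.2% of genes passed between 40 and 42 °C, and 4 members fell and 2 rose. SSA3 fell by 1.61 ± 0.12, SSE2 by 1.45 ± 0.15, SSA4 by 0.60 ± 0.20 and SSE1 by 0.50 ± 0.11, while SSB1 rose by 1.02 ± 0.13 and SSB2 by 0.73 ± 0.12. SSA1, SSA2 and SSZ1 did not pass, at -0.28 ± 0.14, -0.20 ± 0.12 and 0.13 ± 0.11. The fall of SSA4 did not pass when any 1 of the 4 IDRm total libraries at 40 and 42 °C was left out, at -0.56 (without 40 °C replicate 1), -0.63 (40 °C replicate 2), -0.57 (42 °C replicate 1) and -0.63 (42 °C replicate 2), nor with no scaling factor (-0.49, adjusted p = 0.0775).

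Heat also turned over which transcript dominated the family. Each member's share of the summed CPM per kb of the 9 genes was taken in every library. In WT total RNA the SSB pair made up 52.4% ± 2.25 of this sum at 30 °C, 3.69% ± 0.429 at 40 °C and 9.61% ± 0.874 at 42 °C (mean ± SD, n = 2). SSA4 made up 2.94% ± 1.27, 55.5% ± 1.61 and 49.8% ± 4.88 at the same temperatures. In IDRm the SSB pair went from 51.0% ± 0.662 to 2.45% ± 0.243 and 6.35% ± 0.29, and SSA4 from 1.98% ± 0.0204 to 58.3% ± 0.0279 and 54.8% ± 1.44. The summed level itself went from 6039 ± 460.1 CPM per kb at 30 °C to 27511 ± 1089 at 40 °C and 17392 ± 2032 at 42 °C in WT.

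SSA1 and SSA2 made up 12.3% ± 0.38 and 10.2% ± 0.567 of the WT sum at 40 °C. SSE1 went from 15.2% ± 1.64 to 10.3% ± 0.32 and SSE2 from 0.872% ± 0.025 to 3.03% ± 0.191. SSZ1 went from 7.77% ± 0.322 to 1.09% ± 0.0748. With length taken as the number of unique 50-base windows, an alternative chosen after seeing the data, SSA4 made up 41.4% ± 1.71 in WT and 45.3% ± 7.63e-04 in IDRm at 40 °C, the highest share of any single member in both. SSA1 and SSA2 then made up 21.9% ± 0.406 and 18.2% ± 0.79 in WT, together within 1 SD of SSA4, and 20.8% ± 0.0374 and 15.2% ± 0.275 in IDRm. On this scale at 42 °C, SSA4 made up 34.9% ± 4.36 in WT and 39.9% ± 1.54 in IDRm. There SSA1 and SSA2 were at 21.8% ± 0.298 and 21.0% ± 2.999 in WT and 22.9% ± 0.12 and 17.8% ± 1.2 in IDRm, together more than SSA4 in WT and, by less than the SD of SSA4, in IDRm. At 42 °C the order of that pair and SSA4 thus changes with how length is counted.

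**Figure D3:**
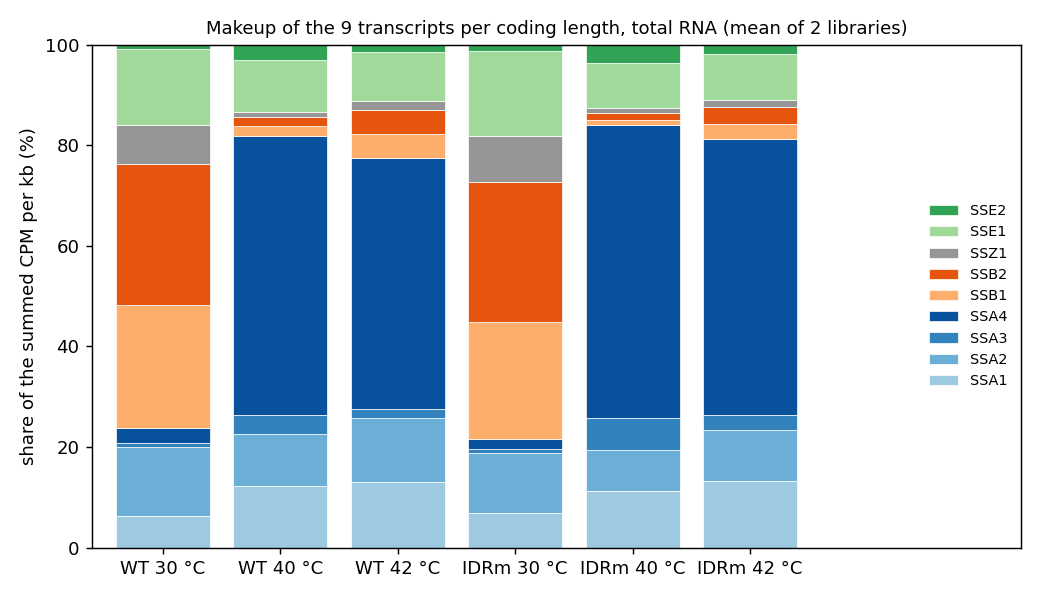
Share of each transcript in the summed CPM per kb of the 9 genes in total RNA, in percent, as the mean of 2 libraries for each strain and temperature. SSB1 and SSB2 fill most of the bars at 30 °C, and SSA4 fills about as much of the bars at 40 and 42 °C.

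Inside the pairs the balance changed too. SSA1 stood at 0.49 and 0.44 times the level of SSA2 per kb in the WT libraries at 30 °C and at 1.23 and 1.19 times at 40 °C. In IDRm the ratios were 0.547 and 0.61 and 1.36 and 1.39. SSE1 stood at 16.4 and 18.4 times the level of SSE2 at 30 °C in WT, 3.47 and 3.32 times at 40 °C and 7.27 and 6.51 times at 42 °C. SSA4 stood at 0.299 and 0.652 times the level of SSA1 at 30 °C and 4.69 and 4.31 times at 40 °C in WT. SSB1 stood below SSB2 at 30 °C in both strains, at 0.865 and 0.879 in WT and 0.851 and 0.837 in IDRm. At 40 °C it stood above SSB2 in WT, at 1.14 and 1.17, and below it in IDRm, at 0.703 and 0.76.

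The strains were then compared at each temperature. At 30 °C, where 12.9% of genes differed, 5 members were lower in IDRm: SSA4 by 0.92 ± 0.20, SSA2 by 0.57 ± 0.12, SSA3 by 0.50 ± 0.13, SSB1 by 0.43 ± 0.13 and SSB2 by 0.38 ± 0.12 on the log2 scale. SSA1 alone did not pass, and the SSA1 and SSA2 pair as a sum was lower by 0.46 ± 0.13 (adjusted p = 0.0265). For each of the 5, both IDRm libraries were below both WT libraries, as they also were for SSA1, SSE1 and SSZ1, which did not pass. The share of all genes parted in this way was not counted. All 5 calls were lost when only these 2 groups were fitted, without IDRm 30 °C total replicate 1 and without IDRm 30 °C total replicate 2. Without WT 30 °C total replicate 1 the count was 2. The differences then kept their direction, at -0.60 and -0.55 for SSA2, -0.54 and -0.50 for SSA3, -0.96 and -0.90 for SSA4, -0.50 and -0.39 for SSB1 and -0.44 and -0.35 for SSB2 without the one and the other IDRm library. Without WT 30 °C total replicate 2 SSA4 was at -0.50 and kept its call. Without WT 30 °C total replicate 1, SSA3 was at -0.47, SSB1 at -0.34 and SSB2 at -0.28, none called.

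At 40 °C, where 11.1% of genes differed, SSA3 was higher in IDRm by 0.71 ± 0.12 and SSB1 lower by 0.91 ± 0.13. SSA3 lost its call without WT 40 °C total replicate 2 (0.57, adjusted p = 0.0754). SSB2 did not pass at -0.25 ± 0.12, and the summed SSB pair was lower in IDRm by 0.57 ± 0.13 (adjusted p = 0.011). SSA4, at 0.10 ± 0.20, overlapped between the strains. At 42 °C, where 23.4% of genes differed, SSA3 (0.76 ± 0.12) and SSE2 (0.59 ± 0.14) were higher in IDRm and SSB1 (-0.48 ± 0.13) and SSB2 (-0.36 ± 0.12) lower. Leaving out 1 library at a time left 1 or 2 of these 4 calls. SSA3 kept its call throughout, while SSE2 lost it without IDRm 42 °C total replicate 2 (0.43) or WT 42 °C total replicate 1 (0.53). SSB1 lost it without IDRm 42 °C total replicate 1 (-0.53) or 2 (-0.43) or WT replicate 2 (-0.39), and SSB2 lost it without any 1 of the 4, at -0.38, -0.34, -0.33 and -0.39.

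The heat effect itself differed between the strains for SSA3 at both temperatures and for SSA4 at 42 °C. The strain difference in the 40 °C effect passed in 1.64% of genes and in 1 member, SSA3, whose log2 rise was larger in IDRm by 1.21 ± 0.18 (adjusted p = 0.00331). SSA4 stood at 1.01 ± 0.29 and did not pass (adjusted p = 0.0949). For the 42 °C effect 11.8% of genes passed, with SSA3 at 1.26 ± 0.18 (adjusted p = 3.94e-04) and SSA4 at 1.22 ± 0.29 (adjusted p = 0.0138). The SSA4 call was lost without IDRm 30 °C total replicate 1 (1.26, adjusted p = 0.062) and without WT 42 °C total replicate 1 (1.02, 0.0669), and its value was 0.80 without WT 30 °C total replicate 2, where it still passed. SSA4 started at 250.4 and 423 CPM in WT and 182 and 176 in IDRm, and its libraries at 40 °C overlapped between the strains. The 40 and 42 °C tests share the 30 °C libraries.

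In the fractions, 2 libraries touch several results. WT 30 °C soluble replicate 2 held 1151 CPM of SSA4 against 240 in replicate 1, and WT 30 °C pellet replicate 2 held 605 against 190. In the soluble library HSP104 was at 1551 CPM against 740.4, HSP82 at 1685 against 732 and FES1 at 254 against 139, so that several heat-induced transcripts stood high there. WT 42 °C soluble replicate 2 was the shallowest library, at 4934241 counts. It held 3443 CPM of SSB1 against 1821, 3059 of SSB2 against 1826 and 17609 of SSA4 against 29442 in replicate 1. Their part in the results below was not tested beyond the values given without them.

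Scaling also matters between the fractions, because the whole distribution moved with it. With no scaling factor the median log2 difference of all genes rose by 0.35 in WT at 40 °C and 0.47 in WT at 42 °C, and by 0.26 and 0.21 in IDRm. The share of calls that were higher in the pellet went from 51.2% to 63.7% in WT at 40 °C and from 53.6% to 66.6% at 42 °C. SSZ1 in WT was then at -0.53 at 40 °C and -0.31 at 42 °C, SSE1 at -0.29 and SSB1 at -0.89 at 42 °C, all still called. SSB2 at 42 °C was at -0.09 and was not. SSB2 in WT and SSB1 in IDRm rose to 0.76 and 0.74 at 40 °C. With TMM scaling the median was 0.04 and 0.16 in WT and 0.02 and 0.10 in IDRm at 40 and 42 °C. The differences given here are relative to that scaling and not to the median.

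Levels in the fractions are shares within each library, and how much RNA each fraction held is not known. At 30 °C 7 members in WT and 4 in IDRm were called lower in pellet than in soluble RNA, as were 34.8% and 33.7% of all genes. In WT, where 68.2% of genes differed, SSA3 was the 1 member higher in the pellet. SSZ1 was at 342 and 335 CPM in the pellet libraries and 773 and 843 in the soluble ones, a log2 difference of -1.25 ± 0.14. SSB1 was at 1054 and 1064 against 2024 and 2205 CPM (-0.997 ± 0.186) and SSB2 at 1394 and 1383 against 2542 and 2729 (-0.92 ± 0.17). SSA1 (-0.63 ± 0.13) and SSA2 (-0.70 ± 0.13) were lower in the pellet by less. SSA3 was at 143 and 162 CPM in the pellet and 92.4 and 122 in the soluble RNA (0.51 ± 0.16), and lost its call without WT 30 °C pellet replicate 2 (0.41) or soluble replicate 1 (0.32).

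The WT values of SSE1 (-0.37 ± 0.13) and SSE2 (-0.43 ± 0.15) at 30 °C were near the threshold. SSE1 lost its call without WT 30 °C pellet replicate 1 (-0.39), pellet replicate 2 (-0.36) or soluble replicate 2 (-0.29), and SSE2 without pellet replicate 1 (-0.32) or soluble replicate 2 (-0.23). Both lost it with DESeq2's size factors (-0.21 and -0.27) and with no scaling factor (-0.23 and -0.29). They also lost it without both WT 30 °C replicate 2 fraction libraries (-0.27 and -0.37). SSA4 did not pass at -0.81 ± 0.58, with a 95% interval from -2.06 to 0.45, and turned to 0.73 without soluble replicate 2. Without pellet replicate 2 it passed at -1.88 and without soluble replicate 1 at -1.54. In these fits the replicate numbers of pellet and soluble RNA no longer matched. By replicate number, each WT pellet library at 30 °C held less SSA4 than its soluble library.

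In IDRm at 30 °C, where 68.2% of genes also differed, SSB1 (-0.79 ± 0.19), SSB2 (-0.75 ± 0.17), SSZ1 (-0.82 ± 0.14) and SSA2 (-0.31 ± 0.13) were lower in the pellet and SSA3 (0.86 ± 0.17) was higher. SSA2 lost its call when any 1 of the 4 libraries was left out, at -0.33, -0.29, -0.35 and -0.27, with DESeq2 (-0.18, adjusted p = 0.164) and when summed with SSA1 (-0.25 ± 0.12, adjusted p = 0.0792). SSA1, SSA4, SSE1 and SSE2 did not pass, at -0.13 ± 0.13, 0.26 ± 0.58, -0.09 ± 0.13 and -0.33 ± 0.15. SSE1 changed sign with DESeq2's size factors (0.03), and SSE2 passed without IDRm 30 °C pellet replicate 2 (-0.45) or soluble replicate 1 (-0.46).

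At 40 °C the 6 members that rose with heat had a lower level in the pellet than in soluble RNA in both strains, and all but SSA4 passed. In WT 73.9% of genes differed between the fractions, 36.1% lower and 37.9% higher in the pellet, and 7 members were called lower and 1 higher. In IDRm 71.8% differed, 35.2% lower and 36.6% higher, and 5 members were called lower and 2 higher. SSA1 was at 3503 and 3343 CPM in WT pellet and 8777 and 8674 in WT soluble RNA (-1.35 ± 0.13), and at 3089 and 3329 and 8277 and 7133 in IDRm (-1.26 ± 0.13). SSA3 was at 1229 and 1027 against 3003 and 2484 CPM in WT (-1.28 ± 0.16) and 1517 and 1608 against 4121 and 3863 in IDRm (-1.35 ± 0.16), the reverse of its place at 30 °C. SSA2, SSE1 and SSE2 were lower in the pellet by 1.06 to 1.19 in both strains.

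SSA4 stood at 15915 and 15041 CPM in WT pellet and 41779 and 35939.5 in WT soluble RNA at 40 °C, and at 15032 and 16957 and 34606 and 32719.6 in IDRm. Both pellet libraries were below both soluble libraries in each strain. The log2 differences, -1.33 ± 0.58 (adjusted p = 0.0519) and -1.07 ± 0.58 (adjusted p = 0.109), did not pass, with a standard error several times that of the other members. When only the 2 groups compared were fitted, they passed at -1.32 (adjusted p = 2.03e-16) and -1.07 (adjusted p = 1.59e-08). The WT difference also passed with DESeq2 (-1.33, adjusted p = 0.021) and with its size factors in edgeR (-1.33, 0.0485).

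The ribosome-bound members did not share 1 direction. SSB2 was higher in the pellet at 40 °C, at 1092 and 1166 against 822 and 887 CPM in WT (0.40 ± 0.17) and 1113 and 1105 against 657 and 562 in IDRm (0.86 ± 0.17). SSB1 was higher in the pellet in IDRm, at 646 and 649 against 483 and 445 CPM (0.48 ± 0.19), and lower there in WT, at 723 and 752 against 1056 and 1066 (-0.52 ± 0.19). The WT calls were fragile. SSB2 lost its call without any 1 of the 4 WT libraries at 40 °C, at 0.46 and 0.35 without pellet replicates 1 and 2 and 0.35 and 0.46 without soluble replicates 1 and 2. SSB1 lost it without WT 40 °C pellet replicate 1 (-0.48) or soluble replicate 2 (-0.52), and with no scaling factor (-0.17, adjusted p = 0.326).

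As a sum, the SSB pair did not differ in WT at 40 °C (-0.04 ± 0.18, adjusted p = 0.853) and was higher in the pellet in IDRm (0.71 ± 0.18, adjusted p = 0.0014). In IDRm, SSB1 alone lost its call when any 1 of its 4 libraries was left out, at 0.42 to 0.54. SSB2 kept it in IDRm. SSZ1 was lower in the pellet in WT (-0.89 ± 0.14) and did not pass in IDRm (-0.11 ± 0.14), where the sign turned with no scaling factor (0.15).

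At 42 °C, 79.1% of genes differed between the fractions in WT and 78.7% in IDRm. SSA1 (-1.53 ± 0.13 in WT and -1.44 ± 0.13 in IDRm), SSA2 (-1.51 ± 0.13 and -1.33 ± 0.13) and SSE1 (-0.76 ± 0.13 and -0.92 ± 0.13) were lower in the pellet in both strains. SSB2 was at 1536 and 1680.2 CPM in WT pellet and 1826 and 3059 in WT soluble RNA (-0.60 ± 0.17), and at 1550.0 and 1506 and 1091 and 1032 in IDRm (0.53 ± 0.17), lower in the pellet in one strain and higher in the other. Without WT 42 °C soluble replicate 2 the WT value was -0.18 and did not pass, and without replicate 1 it was -0.92. SSB1 was at 943 and 1039 against 1821 and 3443 CPM in WT (-1.41 ± 0.19) and did not pass in IDRm (-0.32 ± 0.18). Its WT value was -0.88 without soluble replicate 2. The summed pair was at -0.97 ± 0.18 in WT and 0.16 ± 0.18 in IDRm (adjusted p = 0.428).

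SSA3 did not pass in WT at 42 °C (-0.33 ± 0.16), turned to 0.13 with no scaling factor and passed at -0.53 without WT 42 °C soluble replicate 2. It also passed with DESeq2 (-0.40, adjusted p = 0.0164) and with its size factors in edgeR (-0.40, 0.0252). In IDRm it was lower in the pellet (-0.89 ± 0.16). SSE2 was lower in the pellet in WT (-0.36 ± 0.15) and IDRm (-0.78 ± 0.15), but the WT value turned to 0.11 with no scaling factor and lost its call without WT 42 °C pellet replicate 1 (-0.39), pellet replicate 2 (-0.34) or soluble replicate 1 (-0.21). SSZ1 was lower in WT (-0.81 ± 0.14, and -0.52 without WT 42 °C soluble replicate 2) and did not pass in IDRm (-0.26 ± 0.14). SSA4 was lower in both pellet libraries than in both soluble libraries of each strain, and did not pass in either, at -1.22 ± 0.58 and -1.29 ± 0.58. It passed in both with DESeq2 (-1.29, adjusted p = 0.0233, and -1.34, 0.0184) and when only the 2 groups were fitted (-1.31, 0.0177, and -1.34, 9.56e-04), and in IDRm with DESeq2's size factors in edgeR (-1.34, 0.0437). In that fit of 2 groups the WT calls of SSB2 (-0.69, adjusted p = 0.0919) and SSE2 (-0.45, 0.092) were lost.

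**Figure D4:**
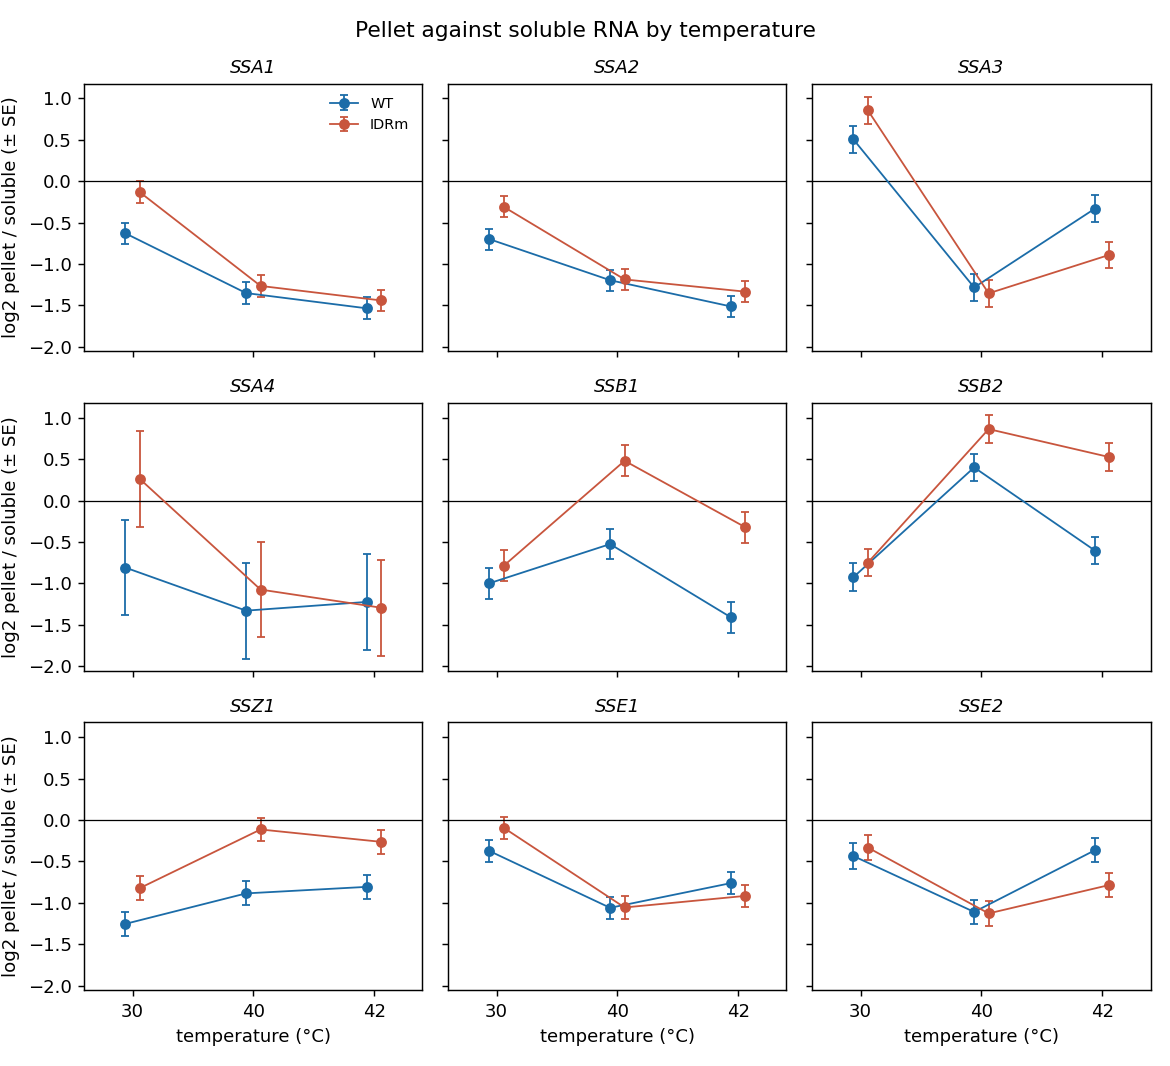
Log2 ratio of pellet to soluble level for each transcript at 30, 40 and 42 °C (evenly spaced categories), with bars for the standard error of the fit, for WT (blue) and IDRm (red). Values below 0 are lower in the pellet. SSB2 lies above 0 at 40 °C in both strains, while SSA1, SSA2 and SSE1 lie below -0.7 at 40 and 42 °C.

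Movement of RNA between the fractions was not measured. The shift of the pellet-soluble ratio with heat, a ratio of shares within libraries, was tested as an interaction. From 30 to 40 °C it passed in 21.0% of genes in WT and 21.8% in IDRm. Of the WT calls 62.0% were higher, against 87.4% with no scaling factor and 40.4% with DESeq2's size factors, and of the IDRm calls 59.4% against 81.2% and 36.7%. In IDRm the ratio fell for SSA1 (-1.13 ± 0.18), SSA2 (-0.88 ± 0.18), SSA3 (-2.21 ± 0.23), SSE1 (-0.96 ± 0.19) and SSE2 (-0.80 ± 0.21), and rose for SSB1 (1.27 ± 0.26), SSB2 (1.61 ± 0.24) and SSZ1 (0.71 ± 0.20). In WT the ratio fell for SSA1 (-0.72 ± 0.18), SSA3 (-1.79 ± 0.23), SSE1 (-0.69 ± 0.19) and SSE2 (-0.68 ± 0.21) and rose for SSB2 (1.33 ± 0.24). SSA2 (-0.50 ± 0.18), SSB1 (0.47 ± 0.26), SSZ1 (0.37 ± 0.20) and SSA4 (-0.52 ± 0.81) did not pass there. SSA2 passed with DESeq2 (-0.66, adjusted p = 0.00121) and its size factors in edgeR (-0.66, 0.0168), and SSB1 (0.69, 0.0288) and SSZ1 (0.58, 0.0187) passed with no scaling factor. When only the groups compared were fitted, SSA2 (-0.49, adjusted p = 0.0158), SSB1 (0.48, 0.011) and SSZ1 (0.37, 0.0299) passed, making 8 members in WT. Calls over all genes rose as well in that fit, from 1290 to 2265. As sums, the SSA1 and SSA2 pair (-0.61 ± 0.17, adjusted p = 0.0169) and the SSB pair (0.92 ± 0.25, adjusted p = 0.013) passed in WT. SSA4 in IDRm (-1.34 ± 0.81) did not pass, and did with the groups alone (-1.33, adjusted p = 0.0145).

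Some of these calls rested on single libraries. In WT, SSA1 lost its call without 30 °C soluble replicate 1 (-0.59), SSE1 without 30 °C soluble replicate 1 (-0.61), 40 °C pellet replicate 2 (-0.60) or 40 °C soluble replicate 2 (-0.60), and SSE2 when any 1 of 6 of its 8 libraries was left out (-0.50 to -0.72). With no scaling factor SSE1 (-0.48) and SSE2 (-0.47) also lost theirs, as did SSE2 without both WT 30 °C replicate 2 fraction libraries (-0.74). The SSA4 shift in WT turned to 0.55 without 30 °C pellet replicate 2 and 0.21 without 30 °C soluble replicate 1, and passed at -2.05 without 30 °C soluble replicate 2. In these fits the 30 °C replicate numbers of pellet and soluble RNA no longer matched. In IDRm, SSZ1 lost its call without 30 °C pellet replicate 1 (0.69), 30 °C soluble replicate 2 (0.54), 40 °C pellet replicate 2 (0.65) or 40 °C soluble replicate 2 (0.67), and SSE2 without 30 °C pellet replicate 2 (-0.68) or 30 °C soluble replicate 1 (-0.67). The shifts of SSA3 and SSB2 at 40 °C passed in both strains whichever library was left out.

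From 30 to 42 °C the shift passed in 38.3% of genes in WT and 37.2% in IDRm. Of these calls 61.5% and 63.1% were higher, against 85.4% and 74.2% with no scaling factor and 42.3% and 48.0% with DESeq2's size factors. With no scaling factor SSA1 in WT was at -0.57 and SSA2 at -0.46, both still called. The ratio fell in both strains for SSA1 (-0.91 ± 0.18 in WT and -1.31 ± 0.18 in IDRm), SSA2 (-0.81 ± 0.18 and -1.02 ± 0.18) and SSA3 (-0.84 ± 0.23 and -1.74 ± 0.23). SSA3 in WT lost its call without 30 °C soluble replicate 1 (-0.65) and with no scaling factor (-0.52). In IDRm the ratio of SSE1 (-0.82 ± 0.19) fell as well, and those of SSB2 (1.27 ± 0.24) and SSZ1 (0.56 ± 0.20) rose. SSZ1 lost its call without any 1 of 6 of its 8 libraries (0.39 to 0.58). In WT SSB1 (-0.41 ± 0.26), SSB2 (0.32 ± 0.23), SSZ1 (0.45 ± 0.20), SSE1 (-0.39 ± 0.19) and SSE2 (0.07 ± 0.21) did not pass. SSE1 was at -0.63 and passed with DESeq2 (adjusted p = 0.00128) and with its size factors in edgeR (0.013). With no scaling factor SSZ1 (0.81, adjusted p = 8.83e-04) and SSB2 (0.69, 0.00775) passed. The summed SSB pair was at -0.01 ± 0.25 in WT (adjusted p = 0.982) and passed in IDRm at 0.92 ± 0.25 (adjusted p = 0.00709), where SSB1 alone did not (0.46 ± 0.26). In IDRm, SSZ1 lost its call with DESeq2 (0.38, adjusted p = 0.149), and SSE2 (-0.45 ± 0.21) did not pass but did with DESeq2 (-0.63, 0.0089). SSA4 passed in neither strain. Its IDRm value was -1.56, and it passed there when only the groups compared were fitted (-1.67, adjusted p = 0.0111). Without WT 42 °C soluble replicate 2 the WT shift was 0.74 for SSB2, 0.73 for SSZ1, -0.48 for SSE1 and 0.12 for SSB1.

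Whether the shift itself differed between the strains was tested in the same model. For 40 °C no gene passed (0% of 6141), 209 had an unadjusted p under 0.05, and DESeq2 called 1 gene. For 42 °C 0.114% passed, which were 7 genes, against 663 at an unadjusted p under 0.05 and 93 called by DESeq2. No member was called in either, by edgeR or DESeq2. At an unadjusted p under 0.05 there was 1 member at 40 °C and there were 3 at 42 °C. SSA4 stood at -0.82 ± 1.14 at 40 °C and -1.14 ± 1.14 at 42 °C. The largest differences of the other members were 0.79 ± 0.37 for SSB1 at 40 °C, with a 95% interval from -0.01 to 1.60, and 0.95 ± 0.33 for SSB2 at 42 °C, from 0.23 to 1.68. Without WT 42 °C soluble replicate 1 the 42 °C test called 729 genes, 3 members among them.

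**Figure D5:**
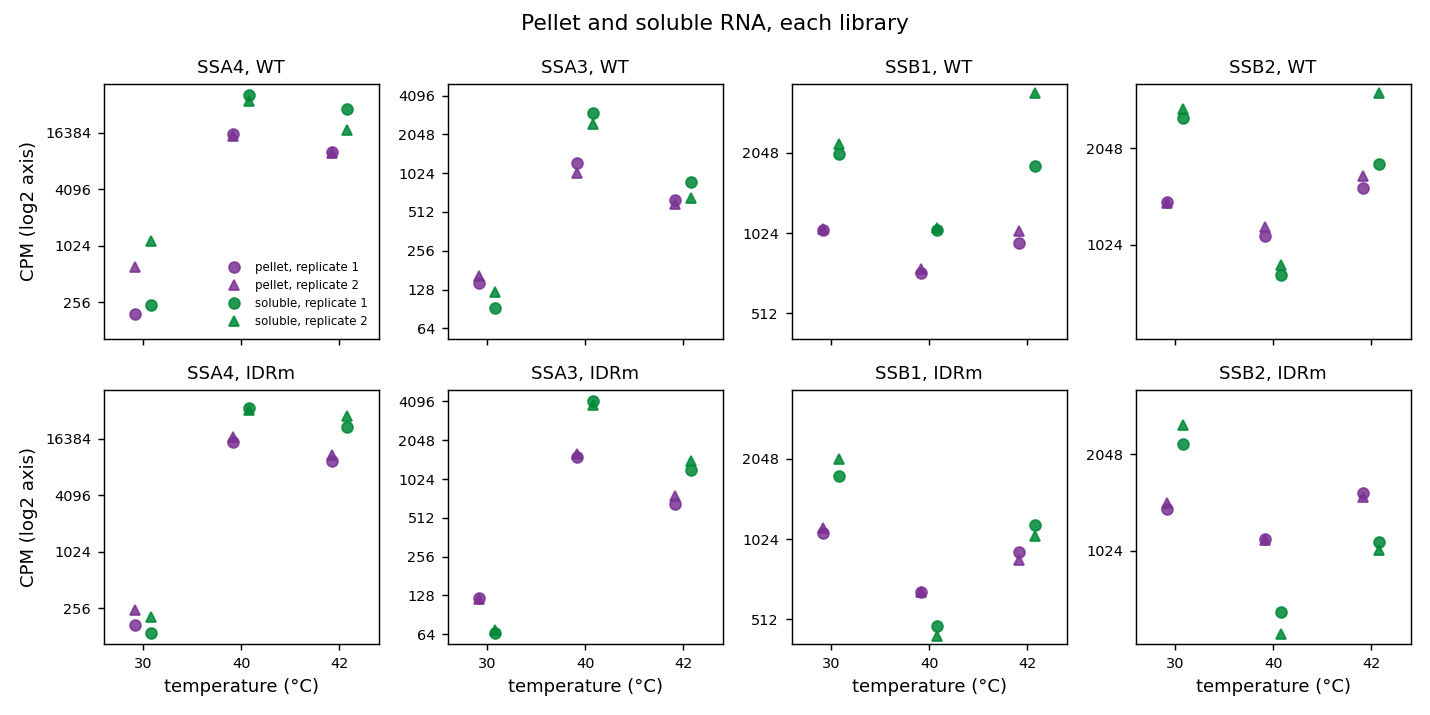
CPM of SSA4, SSA3, SSB1 and SSB2 in pellet (purple) and soluble (green) RNA at 30, 40 and 42 °C (evenly spaced categories, log2 axis), for WT (top row) and IDRm (bottom row). Each symbol is 1 library, a circle for replicate 1 and a triangle for replicate 2. The SSA4 points of WT at 30 °C lie apart (240 and 1151 CPM in soluble RNA), as do the SSB points of WT soluble RNA at 42 °C.

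The chaperones that work with the family were read in the same contrasts, from lists of partners. At 40 °C against 30 °C in WT total RNA, where 37.1% of genes rose and 32.6% fell, 7 of 13 cytosolic and nuclear J-proteins rose and 4 fell, and in IDRm 7 rose and 5 fell. SIS1, an essential J-protein of Ssa, rose by 4.88 ± 0.15 in WT on the log2 scale, APJ1 by 4.76 ± 0.17 and YDJ1, the main general J-protein, by 2.37 ± 0.12. ZUO1, the J-protein of the ribosome-associated complex, fell by 1.81 ± 0.13 in WT and 1.58 ± 0.13 in IDRm, beside its partner SSZ1 and the SSB pair. The list of J-proteins had a median change of 0.83 in WT.

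Of the 2 exchange factors outside the family, FES1 rose by 5.33 ± 0.17 in WT and 5.57 ± 0.17 in IDRm, while SNL1 did not pass (-0.28 ± 0.20 and 0.10 ± 0.20). Among the 4 nascent-chain partners, ZUO1 and the nascent polypeptide-associated complex subunits EGD1 (-0.53 ± 0.15) and EGD2 (-0.39 ± 0.13) fell in WT and BTT1 (0.52 ± 0.19) rose. In IDRm EGD1 (-0.17 ± 0.15) and EGD2 (0.00 ± 0.13) did not pass. All 3 of HSP82 (5.09 ± 0.17), HSC82 (1.45 ± 0.13) and the disaggregase HSP104 (5.04 ± 0.16) rose in WT, as they did in IDRm. HSF1, which encodes the regulator, rose by 1.31 ± 0.16 in WT and 1.21 ± 0.16 in IDRm.

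The Hsp70 and Hsp110 genes of other compartments rose less than the cytosolic stress forms. Of 5, 4 rose in WT and 5 in IDRm. KAR2, the Hsp70 of the endoplasmic reticulum, rose by 2.95 ± 0.18 in WT, SSC1, that of the mitochondrial matrix, by 1.73 ± 0.14, and LHS1, the Hsp110 of the endoplasmic reticulum, by 0.88 ± 0.15. Between the fractions at 40 °C, 7 J-proteins were lower and 1 higher in the pellet in WT, and 6 lower and 1 higher in IDRm. All 4 nascent-chain partners and all 3 of the Hsp90 and disaggregase list were lower in the pellet in both strains. In these contrasts 73.9% of genes in WT and 71.8% in IDRm were called, 36.1% and 35.2% as lower in the pellet. ZUO1 was lower in the pellet by 1.39 ± 0.20 in WT and 1.11 ± 0.20 in IDRm at 40 °C, and FES1 by 2.62 ± 0.31 and 2.58 ± 0.31.

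Genes whose pattern was most like each member were found by Pearson's r of mean log2 CPM over the 18 groups, among 3737 named protein-coding genes with a mean of at least 32 CPM. The groups share strains and temperatures, so r describes likeness here and no more. SSA4 was closest to HSP78 (r = 0.998), the mitochondrial disaggregase, and HSP104 (0.996). SSA1 was closest to ZPR1 and FES1 (both 0.991), SSA2 to SPO24 (0.991) and MUM3 (0.986), and SSE1 to ATG21 (0.987) and OPI10 (0.978). SSA3 and SSE2 shared CLD1, a cardiolipin deacylase, as their closest gene (0.989 and 0.986), followed by PIB1 (0.984) and PIG2 (0.986). SSB1 was closest to GCD11 (0.956), the gamma subunit of initiation factor eIF2, and RKI1 (0.945), and SSB2 to PRS5 (0.945) and GUA1 (0.940), enzymes of nucleotide synthesis. SSZ1 was closest to SEC53 and ADO1 (both 0.940). Within the family, SSA1 correlated with SSA4 at 0.976 and with SSB2 at -0.681 over the same groups.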

How the data were processed

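The 36 libraries of the series were used, 2 in each of 18 groups, grouped by the labelled genotype, temperature and fraction. Per the submitters' processing notes, bcl2fastq 2.19.1 and STAR 2.5.2b were used and the genome was R64. The deposited table holds whole-number read counts by gene that the authors had not normalised. No source used here names the counter, its strand setting or the annotation.

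Counts were tested with edgeR's quasi-likelihood test (edgeR 4.0.16, limma 3.58.1, R 4.3.3, robust dispersion), using TMM factors, after filterByExpr had removed low counts (minimum count 10). One model took the 12 total libraries (6090 genes, 6 residual degrees of freedom, 11 contrasts) and another the 24 pellet and soluble libraries (6141 genes, 12 residual degrees of freedom, 12 contrasts). P-values were adjusted by the Benjamini-Hochberg method over all genes of a contrast and called under 0.05. Standard errors are those of the fit, and the SD of levels is over 2 libraries. Both models were tested on simulated data. The promoter of 1 member is not reported here. Totals of 4934241 to 13730247 counts gave each member at least 504 counts.

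Duplicate cultures of a strain were grown and divided among the temperatures, per the labels' protocols, so libraries of a group come from separate cultures. That a replicate number marks 1 culture in all groups is not stated. Same-numbered libraries deviated together in 0 of 6 pairs of groups in total RNA and 5 of 30 in the fractions (r above 0.1). All pairs in total RNA and most in the fractions joined different temperatures. Between pellet and soluble RNA at 30, 40 and 42 °C, r was 0.313, -0.0703 and 0.0424 in WT. In IDRm it was 0.0202, -0.113 and 0.582. Numbers were not used to pair libraries, and a pairing of pellet with soluble RNA within a temperature was not fitted.

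The members, the partner lists and the tests were chosen with earlier results of these data known. Named beside the members were up to 3 called genes of a partner list with the largest change at 40 against 30 °C, always ZUO1, FES1, YDJ1, SIS1 and HSP104, and the 2 genes closest in pattern to each member. EGD1, EGD2, BTT1, SNL1, LHS1, HSC82 and HSF1 complete their lists, and HSP82 and FES1 in the soluble libraries at 30 °C were named after their values were seen. Alternatives were DESeq2 1.42.0, its size factors in edgeR, no scaling factor, no filter, a replicate block, summed paralogs, a fit of the compared groups alone and leaving out each library. Leaving out both WT 30 °C replicate 2 fraction libraries, and lengths in unique windows, were added after seeing the data.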

Additional observations from a re-analysis of the deposited data

Results flagged for a closer look

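The heat effect on SSA3 and, at 42 °C, on SSA4, the stress-induced Hsp70 genes, was larger in IDRm than in WT by a test of the difference itself. For SSA3 the log2 change from 30 to 40 °C in total RNA was larger in IDRm by 1.21 ± 0.18, and that from 30 to 42 °C by 1.26 ± 0.18 (SE of the fit). For SSA4 the 42 °C change was larger in IDRm by 1.22 ± 0.29, while the 40 °C difference did not pass (1.01 ± 0.29, adjusted p = 0.0949). Both members were lower in IDRm at 30 °C, calls that were lost when only those 2 groups were fitted (adjusted p = 0.0793 for SSA3 and 0.0863 for SSA4). SSA3 was higher there at 40 and 42 °C, and the SSA4 value did not pass without IDRm 30 °C total replicate 1 or WT 42 °C total replicate 1. These values share the libraries at 30 °C. WT 30 °C total replicate 2 held 423 CPM of SSA4 against 250.4 in replicate 1. The SSA4 difference was 0.80 without replicate 2 and 1.58 without replicate 1, and passed in both.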

How the results depend on the processing

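Every member call of 40 and 42 °C against 30 °C in total RNA held under every alternative run. The replicate block was 1 term per strain over all temperatures, so it did not pair pellet with soluble RNA within a temperature. The replicate block changed 1 of 147 member values, the WT difference of SSZ1 between 40 and 42 °C (0.00132), which was -3.19e-05 with the block, -0.00247 with no filter and -0.000556 when only the groups compared were fitted, and which ran from -0.0590 to 0.0450 over left-out libraries. Deviations of same-numbered libraries correlated at -0.158 to 0.0199 in total RNA and -0.333 to 0.582 in the fractions, highest between pellet and soluble RNA of IDRm at 42 °C (0.582) and of WT at 30 °C (0.313). DESeq2 left 145 of 158 member values with the same direction and call, its size factors in edgeR 143, no scaling factor 138, no filter 157 and the fit of the compared groups 137. Summing paralogs left 61 of 70, and 681 of 788 held over left-out libraries, of which 81 lost a call, 11 gained one and 15 changed sign.

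Between the strains at 30 °C 5 members were called, 3 with no scaling factor, 0 when only those groups were fitted and 0 to 6 over left-out libraries. At 40 °C 2 were called, 4 with the groups alone and 1 to 2 over left-out libraries, and at 42 °C 4 against 1 to 2. The strain difference in the heat effect had 1 member at 40 °C, 2 by DESeq2 and 1 to 2 over left-out libraries, and at 42 °C 2 against 1 to 4. The WT shift at 40 °C had 5 members, 8 with the groups alone and 2 to 6 over left-out libraries, that at 42 °C 3 against 2 to 6, and the strain difference in the 42 °C shift 0 against 0 to 3.

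Signs turned as follows, and the cause was not tested. Over left-out libraries, SSA4 between pellet and soluble RNA at 30 °C ran from -1.88 to 0.725 in WT and -0.0298 to 0.585 in IDRm, and SSE1 in IDRm from -0.213 to 0.0318. The WT shift of SSA4 ran from -2.05 to 0.546 at 40 °C and -1.95 to 0.654 at 42 °C, that of SSB1 at 42 °C from -0.794 to 0.121 and that of SSE2 from -0.129 to 0.250. With no scaling factor, pellet against soluble RNA gave 0.134 for SSA3 and 0.106 for SSE2 in WT at 42 °C and 0.146 for SSZ1 in IDRm at 40 °C. DESeq2 and its size factors gave 0.0320 and 0.0321 for SSE1 in IDRm at 30 °C and -0.166 and -0.165 for the SSE2 shift in WT at 42 °C. Summed with their paralog, SSB2 was at -0.0380 in WT at 40 °C, SSB1 at 0.155 in IDRm at 42 °C and the SSB2 shift in WT at 42 °C at -0.00896.

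Over all genes, calls between the strains moved from 787 to 80 at 30 °C and from 678 to 1590 at 40 °C when only those groups were fitted. The strain difference in the heat effect moved from 100 to 43 at 40 °C (174 by DESeq2) and from 717 to 408 at 42 °C, and the shift at 40 °C from 1290 to 2265 in WT (748 without both WT 30 °C replicate 2 fraction libraries) and from 1341 to 2360 in IDRm. The strain difference in the shift moved from 0 to 15 at 40 °C (1 by DESeq2), and at 42 °C from 7 to 93 by DESeq2, 17 with its size factors, 4 with no scaling factor, 0 with the groups alone and 3 without those 2 libraries. With 2 libraries a group and 6 or 12 residual degrees of freedom, small differences may go undetected.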

Other observations

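The balance of the SSB genes differed between the fractions after heat. Per kb of coding sequence, SSB1 stood at 0.756 and 0.770 times SSB2 in the WT pellet libraries and 0.796 and 0.808 times in the WT soluble libraries at 30 °C. At 40 °C the ratios were 0.663 and 0.645 in WT pellet and 1.28 and 1.20 in WT soluble RNA. In IDRm at 40 °C they were 0.580 and 0.587 in the pellet and 0.735 and 0.792 in soluble RNA. At 42 °C the pellet ratios were 0.614 and 0.618 in WT and 0.590 and 0.567 in IDRm, below the soluble ratios of that temperature, which were 0.997 and 1.13 in WT and 1.06 and 1.02 in IDRm. The genes share most of their sequence, and the part that shared reads have in these ratios was not tested.

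The family's makeup per kb also differed between the fractions. At 40 °C the SSB pair made up 6.89% of the family in WT pellet and 3.03% in WT soluble RNA, and 6.35% and 1.87% in IDRm (means of 2 libraries). SSA4 made up 54.4% and 58.5% in WT and 55.1% and 56.2% in IDRm, where the pellet and soluble libraries overlapped.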
